A study of Mus musculus with 4 samples.

Results

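The amino acid transporters examined here are the genes of the solute carrier families 1, 3, 6, 7, 36, 38 and 43, taken as every row of the deposited signal table whose gene symbol starts with Slc1a, Slc3a, Slc6a, Slc7a, Slc36a, Slc38a or Slc43a, with Slc7a11 left out. The rule found 116 rows, each a probe of its own, under 65 gene symbols, of 59305 non-control rows. Of the symbols, 61 are transporter genes and 4 are genes named for lying on the strand opposite a transporter (Slc36a1os, Slc36a3os, Slc6a19os and Slc7a6os). The series compared 2 cultures of mouse aortic vascular smooth muscle cells given prostaglandin E2 (PGE2) with 2 control cultures kept 24 h without treatment. Both groups carry the same genotype, EP4-Tg on the C57BL/6J strain, the PGE2 cultures are labelled 24 h as well, and all 4 were grown out of adult aortic tissue pieces. EP4 is a receptor for PGE2, and a transgenic genotype shared by both groups means that no cells without the transgene were compared here. The dose of PGE2, the promoter that drives the transgene, and the age and number of animals behind each culture are not given in the sources used here. The labels call the cultures biological replicates.

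Amino acids cross the plasma membrane through carriers that differ in substrate, in the ion that drives them and in whether they exchange one amino acid for another. Light chains of the Slc7 family, such as Slc7a5, Slc7a6 and Slc7a7, reach the cell surface only when paired with a heavy chain, most often the glycoprotein encoded by Slc3a2, whereas the cationic carriers Slc7a1, Slc7a2 and Slc7a3 work without one. In smooth muscle, arginine uptake feeds nitric oxide and polyamine synthesis, and glutamine, proline and glycine uptake feed growth and collagen production. The EP4 receptor couples to cyclic AMP, which acts on transcription in part through the cyclic AMP response element TGACGTCA, and amino acid shortage acts through a distinct element bound by Atf4.

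Promoter windows of 3 transporter genes are shown as examples that hold letters of one of these elements, for Slc7a6 only a part of one. Windows of other tested transporters, among them Slc38a2, Slc6a9 and Slc7a7, also hold such letters near the annotated start and are not shown. All windows were read from RefSeq's table of promoters on build GRCm38.p6. It holds a window for 47 of the 65 symbols and for 21 of the 29 transporter genes that could be tested. Capitals mark matches to TGACG, to TGACGTCA, or to TGATGNAAN, the last an Atf4-type pattern, each searched on both strands. The first is chr8:106168821-106168920 on the plus strand, bases -100 to -1 from the start. The second is chr11:20332704-20332853 on the minus strand, bases -140 to 10, where the capitals read as CGTCA and, nearer the start, as the other strand of TGATGNAAN. The third is chr12:73286698-73286797 on the plus strand, bases -150 to -51.
Slc7a6: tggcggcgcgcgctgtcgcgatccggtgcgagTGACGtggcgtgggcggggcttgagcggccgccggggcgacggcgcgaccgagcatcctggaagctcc
Slc1a4: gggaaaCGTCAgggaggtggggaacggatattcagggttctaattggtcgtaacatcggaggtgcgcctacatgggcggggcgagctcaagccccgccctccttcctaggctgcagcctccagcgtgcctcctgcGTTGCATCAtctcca
Slc38a6: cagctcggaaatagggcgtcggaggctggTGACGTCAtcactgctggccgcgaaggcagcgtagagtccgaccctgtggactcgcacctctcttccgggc
The 21 tested genes have 30 windows, since several have more than 1 annotated start. The full element TGACGTCA is in 1 of these 30 windows, that of Slc38a6, and in 1.79% of all 32851 windows in the table. The shorter TGACG, which lies inside the full element, is in 10 of the 30 and in 20.8% of all windows. The pattern TGATGNAAN is in 3 of the 30 and in 3.95% of all. These 3 are windows of Slc1a4 and Slc7a7, and the Slc7a7 windows overlap and share a match. Overlapping windows of Slc7a6 likewise share a TGACG match, so the counts are of windows, not of separate sites. These matches describe the letters only.

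Signals are given on a log2 scale, after each array's processed intensities were divided by their own 75th percentile, so that 0 is the level of a probe brighter than 75% of the spots of its array. Between 47.9% and 53.8% of the spots were well above background on each array, and no spot was saturated. Across genes, the PGE2 arrays correlated with each other at r = 0.978 and the control arrays at r = 0.974, beside 0.943 to 0.958 between PGE2 and control arrays. Of 10 smooth muscle markers, 7 were well above background on both arrays of each group, and Myh11, Lmod1 and Des were not. Summed over that list, the level was 7.81 to 8.33 on the PGE2 arrays and 9.26 to 10.00 on the control arrays. Macrophage and blood markers reached 4 of 6, summing to 2.75 to 3.29 on PGE2 arrays and 2.52 to 2.53 on control arrays, with Adgre1 and Lyz2 never above background. Endothelial markers reached 1 of 6 in both groups, with Tek and Emcn never above background, and summed to -2.49 to -1.82 on PGE2 arrays and -2.15 to -1.11 on control arrays. Fibroblast markers summed to 6.27 on both PGE2 arrays and to 6.27 and 6.35 on the control arrays, sums to which Col1a1 gave most. Lum, another fibroblast marker, had a change of -2.17 (limma adjusted p = 0.159), and Pdgfra one of 0.60. Of 3 adipocyte and 3 glial markers, 1 each was above background in both groups. Whether these differences in marker level have a part in the transporter values was not tested. In RNA from a whole culture, fewer cells of a type and less RNA per cell cannot be told apart.

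Carriers of most substrate classes gave a signal above background in these cells. Of the 61 transporter genes, 29 were tested, each with a probe that both PGE2 arrays or both control arrays measured well above background, 11 were above background on some array without meeting that filter, and 21 were so on none. Of the 29, 24 were above background on all 4 arrays. Carriers of small neutral amino acids and glutamine gave 7 tested genes of 11, and carriers of cationic amino acids, alone or in exchange for neutral ones, gave 6 of 7. The glycine, proline and proton-coupled carriers gave 4 of 9, the carriers of GABA, taurine, betaine and creatine 2 of 6, and the glutamate and aspartate carriers 2 of 6. Of the 2 heavy chains, Slc3a2 was tested, and Slc3a1, the kidney and gut partner of the cystine carrier, was above background on no array. None of the 5 broad neutral Slc6 carriers (Slc6a14, Slc6a15, Slc6a17, Slc6a18 and Slc6a19) was above background on any array. None of the 3 monoamine carriers, for noradrenaline, dopamine and serotonin, passed the filter, although 2 of them were above background on some array. The large neutral amino acid carriers gave 1 tested gene of 4, and the remaining 8 genes, classed here as orphan or other substrate, gave 6.

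No transporter gene passed the test of PGE2 against control at an adjusted p under 0.05. In limma's fit over 17660 genes, 0.668% of all genes passed, 0.396% higher with PGE2 and 0.272% lower. The smallest adjusted p among the 29 transporters was 0.105, for Slc7a6. At an unadjusted p under 0.05 there were 7 transporters, 24.1% of those tested, beside 17.9% of all genes. Of these, 5 were higher with PGE2 (7.31% of all genes were) and 2 lower (10.5% of all genes were). Both lower ones, Slc6a20a and Slc1a6, were well above background on only 1 of the 2 PGE2 arrays, so a filter for all 4 arrays leaves them out. With that filter, 5 of 24 transporters (20.8%) had an unadjusted p under 0.05, beside 15.9% of the 16006 genes that pass it. The count of 7 ranged from 4 without PGE2 replicate 2 to 12 without control replicate 2. The fitted change exceeded 2-fold in 4 of 29 transporters and in 10.8% of all genes.

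The median change, PGE2 minus control, was -0.13 over the 29 transporters and -0.03 over all tested genes, with 12 transporters above 0 and 17 below. With the deposited scaled signal, which is not set to a common percentile, the medians were 0.12 and 0.23, and with no filter on dim probes they were -0.16 and -0.33, so which of the medians was lower depended on the filter. The median size of the change regardless of sign was 0.42 in transporters and 0.28 in all genes. The 2 PGE2 arrays did not overlap the 2 control arrays in 14 of the 29 transporters (48.3%), against 52.2% of all genes. Of these 14, PGE2 was the higher group in 6 (24.0% of all genes) and the lower in 8 (28.3% of all genes). The share of separated genes was thus near that of the array as a whole. In 15 of 29 transporters the gap between the 2 control arrays exceeded the fitted change, which was so for 8998 of 17660 genes overall.

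**Figure D1:**
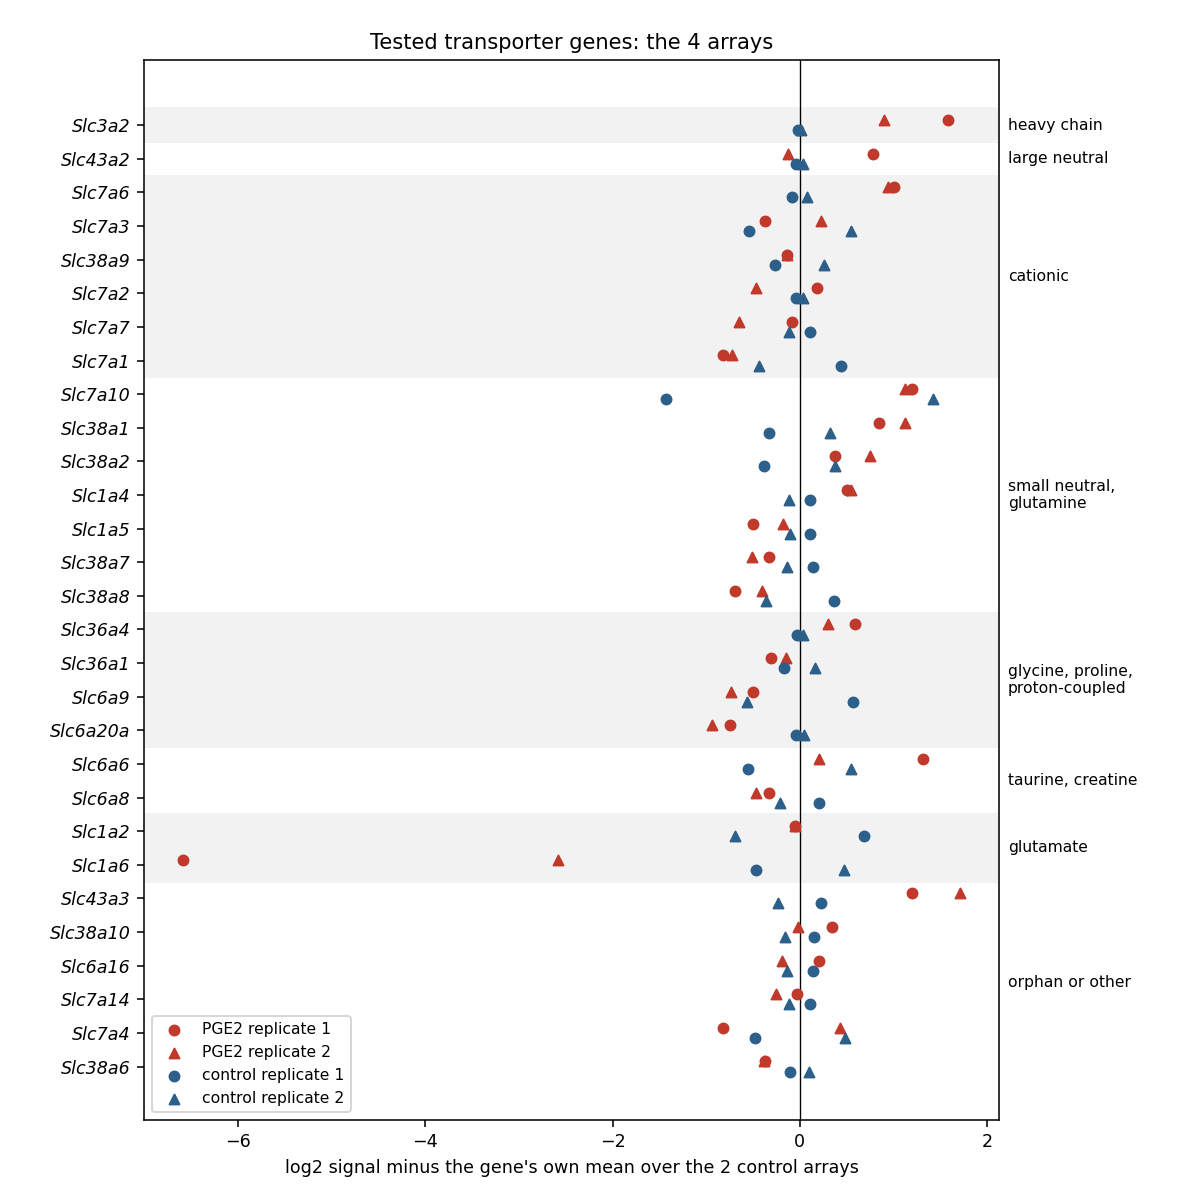
Scaled log2 signal of each tested transporter gene on each of the 4 arrays, minus the gene's own mean over the 2 control arrays. The genes are grouped by substrate class. Slc3a2, Slc7a6, Slc43a3 and Slc38a1 have both PGE2 points above both control points, while Slc1a6 has 1 PGE2 point at -6.58 and the other at -2.59.

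The heavy chain Slc3a2 and the light chain Slc7a6, which together make the exchanger known as system y+L, both had higher PGE2 signals than control signals, without passing the test. Slc3a2, the common heavy chain also called CD98, stood at 5.82 and 5.14 on the PGE2 arrays, against 4.22 and 4.26 on the control arrays. Both PGE2 arrays lay above both control arrays, and the PGE2 arrays were further apart than the control arrays. The fitted change was 1.24 ± 0.28 (SE, n = 2 per group; 95% interval 0.47 to 2.01), or 2.36-fold, with a limma adjusted p of 0.161. Slc3a2 has 3 kept probes, and they differ. A second gave 2.35 and 1.60 with PGE2 against 0.75 and 0.73 in controls, a change of 1.23. The third, designed on another RefSeq transcript of the gene, gave 1.60 and 1.69 with PGE2 against 2.18 and 1.62 in controls, a change of -0.25 with overlapping groups.

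Slc7a6, which exchanges arginine for neutral amino acids such as glutamine, stood at 2.37 and 2.31 with PGE2, against 1.30 and 1.45 in controls. The replicates were close in each group and the groups were well apart. The fitted change was 0.97 ± 0.16 (SE, n = 2 per group; 95% interval 0.53 to 1.41), or 1.96-fold, with a limma adjusted p of 0.105. Its second kept probe gave 0.22 and 0.08 with PGE2 against -0.94 and -0.81 in controls, a change of 1.03. Slc7a6os, a gene that neighbours Slc7a6 on the opposite strand of chromosome 8 and shares 0 bases with it in the RefSeq table, stood at 0.77 and 0.83 with PGE2, against 0.18 and 0.34 in controls. Its groups also did not overlap, and its fitted change was 0.54 ± 0.16 (limma adjusted p = 0.224).

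Slc7a7, Slc7a5 and Slc7a8, which also pair with Slc3a2, gave 1 tested gene among them. Slc7a7, the second y+L light chain, had overlapping groups and a fitted change of -0.37 ± 0.26 (SE). Slc7a5, the light chain that carries leucine and other large neutral amino acids, had 1 probe that was above background on 1 of 2 arrays in each group, so it was not tested. Its readings were -3.81 and -3.96 with PGE2, and -3.20 and -3.49 in controls. Slc7a8, the related light chain, was above background on no array. Among the large neutral carriers that need no heavy chain, Slc43a2 stood at -1.13 and -2.04 with PGE2 against -1.95 and -1.88 in controls, which overlap (change 0.33 ± 0.35, limma adjusted p = 0.666). Slc43a1 was above background on 1 array per group and was not tested.

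Of the 6 tested cationic carriers, 1 change (Slc7a6) was above 0 and 5 were below. Slc38a9, Slc7a2 and Slc7a3, each near 0, were above 0 when some single array was left out, at up to 0.13, 0.18 and 0.47. The class median was -0.14 (0.12 with the deposited scaled signal, 0.01 without control replicate 2), and the changes ran from -0.77 to 0.97. Slc7a1, the main arginine and lysine carrier of most growing cells, stood at 1.54 and 1.64 with PGE2, against 2.80 and 1.92 in controls. Both PGE2 arrays lay below both control arrays, with control replicate 1 well above the rest. The fitted change of -0.77 ± 0.34 (SE, limma adjusted p = 0.340) was -0.33 without control replicate 1 and -1.21 without control replicate 2. Slc7a2, the arginine carrier that inflammatory signals induce in many cells, stood at 1.45 and 0.81 with PGE2 and 1.24 and 1.31 in controls, with overlapping groups and a change of -0.14 ± 0.27. Slc38a9, a lysosomal carrier that reports arginine to the growth kinase mTORC1, had a change of -0.13 ± 0.23 on the brighter probe, which stood for it. That probe was not designed on a RefSeq transcript. The other kept probe was, and its change of 0.60 lay above 0. Slc7a3, a cationic carrier better known from brain, had a change of -0.07.

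Among the 7 tested carriers of small neutral amino acids and glutamine, 4 changes were above 0 and 3 below, with a median of 0.53. That median includes Slc7a10, which passed the filter through the PGE2 arrays, and it was 0.092 over the 6 genes above background on all 4 arrays. It was -0.18 without control replicate 1 and -0.14 with no filter on dim probes. The latter is the value of Slc38a3, which was above background on no array. Slc38a1, a sodium-coupled glutamine carrier, stood at 2.86 and 3.15 with PGE2, against 1.69 and 2.35 in controls. The PGE2 arrays lay above the control arrays, and the control arrays were the further apart. Its change was 0.99 ± 0.29 (SE, n = 2 per group; 95% interval 0.20 to 1.77), or 1.98-fold, with a limma adjusted p of 0.221. All 3 kept probes of Slc38a1 agreed in sign, the other changes being 0.97 and 1.32. Slc38a2, its close relative, which amino acid shortage induces, stood at 5.03 and 5.40 with PGE2, against 4.28 and 5.03 in controls. Its groups touched, since PGE2 replicate 1 and control replicate 2 were nearly level, and the change was 0.56 ± 0.33 (limma adjusted p = 0.446). It was 0.18 without control replicate 1, 0.94 without control replicate 2 and 0.37 without PGE2 replicate 2.

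The alanine, serine and cysteine carriers Slc1a4 and Slc1a5 lay on opposite sides of 0. Slc1a4 stood at 0.69 and 0.73 with PGE2, against 0.30 and 0.07 in controls, so that the groups did not overlap. The change was 0.53 ± 0.17 (SE, 95% interval 0.06 to 0.99), or 1.44-fold, with a limma adjusted p of 0.243. Slc1a5, which also carries glutamine, stood at 0.89 and 1.20 with PGE2, against 1.49 and 1.28 in controls. Here both PGE2 arrays lay below both control arrays, by a change of -0.34 ± 0.20 (limma adjusted p = 0.443). The lysosomal glutamine carrier Slc38a7 and its relative Slc38a8 had changes of -0.42 ± 0.19 and -0.54 ± 0.31, both with separate groups. For Slc38a8 the groups were barely apart, with PGE2 replicate 2 at -2.50 and control replicate 2 at -2.46. Its change was -0.18 without control replicate 1 and -0.91 without control replicate 2. Slc7a10, a carrier of small neutral amino acids including D-serine, stood at -3.65 and -3.72 with PGE2, against -6.27 and -3.42 in controls. Only 1 of its control arrays was above background, and its change of 1.16 ± 1.00 became -0.26 without control replicate 1 and 2.59 without control replicate 2.

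**Figure D2:**
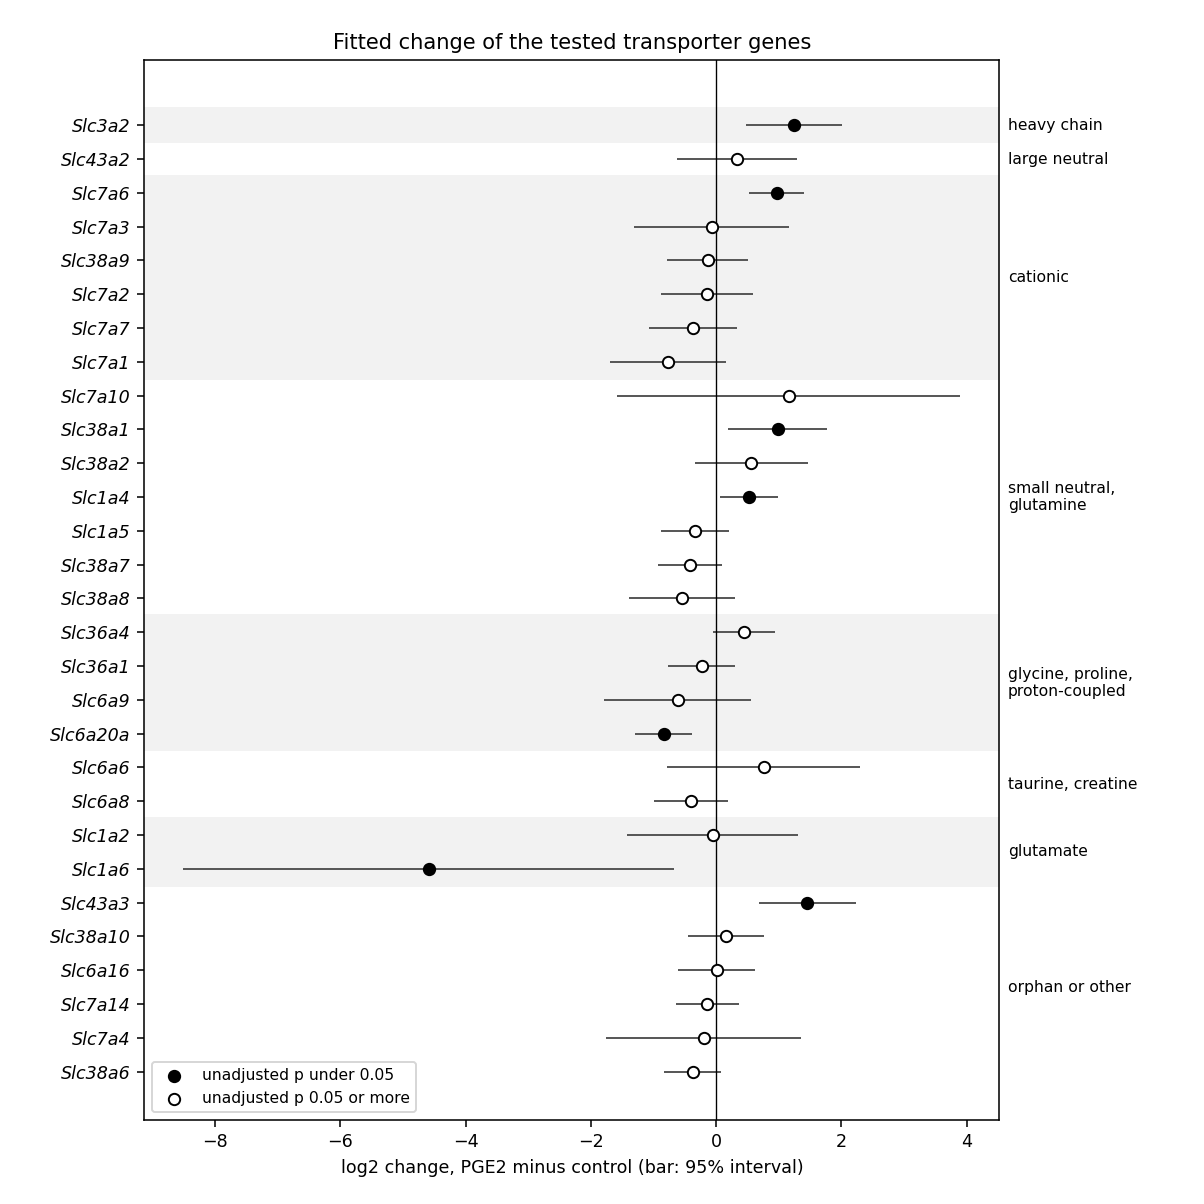
Fitted change in log2 signal, PGE2 minus control, of the tested transporters with its 95% interval, by substrate class. The intervals of Slc7a6, Slc43a3, Slc3a2, Slc38a1 and Slc1a4 lie above 0 and those of Slc6a20a and Slc1a6 below it, and no gene has an adjusted p under 0.05.

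The glycine, proline and proton-coupled class had a median change of -0.42 over 4 genes. It was -0.19 with normexp background correction, -0.17 with the deposited scaled signal, -0.22 without control replicate 1, and -0.23 over the 3 genes above background on all 4 arrays, which leave out Slc6a20a. Slc6a20a, a proline carrier best known from kidney, gut and brain, stood at -4.20 and -4.40 with PGE2, against -3.51 and -3.42 in controls. The groups did not overlap, but all 4 signals were dim and 1 of the PGE2 arrays was not above background. Its change was -0.84 ± 0.17 (SE, 95% interval -1.29 to -0.38), with a limma adjusted p of 0.135, and was -0.30 with normexp background correction (limma adjusted p = 0.287). Slc6a9, the glycine carrier GlyT1, stood at 1.90 and 1.65 with PGE2, against 2.96 and 1.83 in controls. Its overlap came from control replicate 2, and the change of -0.62 ± 0.43 was -0.05 without control replicate 1 and -1.18 without control replicate 2. Slc36a4, a proton-coupled family member with high affinity for proline and tryptophan, stood at -1.09 and -1.38 with PGE2, against -1.71 and -1.65 in controls. Its groups were separate, with a change of 0.44 ± 0.18 (limma adjusted p = 0.315). Slc36a1, the lysosomal proton-coupled carrier of proline and glycine, had a change of -0.23 ± 0.20.

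The taurine and creatine carriers, the 2 tested genes of their class, lay on opposite sides of 0. Slc6a6, the taurine carrier, stood at 2.01 and 0.89 with PGE2, against 0.14 and 1.24 in controls. Each group spanned over 1 log2 unit and the groups overlapped, with a change of 0.76 ± 0.56 (limma adjusted p = 0.538). Slc6a8, the creatine carrier, stood at 3.65 and 3.51 with PGE2, against 4.20 and 3.77 in controls. Both PGE2 arrays were below both control arrays, by a change of -0.40 ± 0.21 (limma adjusted p = 0.410), while its second kept probe gave -0.08.

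Of the glutamate and aspartate carriers, Slc1a6 had PGE2 arrays far below the control arrays and far from each other. This carrier, EAAT4, is best known from Purkinje cells of the cerebellum. It stood at -5.12 and -1.12 with PGE2, against 0.99 and 1.93 in controls. Both controls were above both PGE2 arrays. PGE2 was measured well above background on 1 of its 2 arrays, so the size of the change below rests in part on a reading at background. The change was -4.59 ± 1.43 (SE, 95% interval -8.51 to -0.66), with a limma adjusted p of 0.238 and an SD of 2.83 between the PGE2 arrays. Without PGE2 replicate 2 the change was -6.58. On the PGE2 side, that value rests wholly on replicate 1, at -5.12, the array that was not above background. Without PGE2 replicate 1 the change was -2.59. The array holds 1 probe for Slc1a6, so no second reading was at hand. The neuron marker list, with 2 of 3 genes above background in each group, summed to 4.66 to 5.34 on PGE2 arrays and 5.41 to 5.81 on control arrays. Snap25, with a change of -0.62, gave most of these sums. Syn1, the other one above background in both groups, had a change of 0.73, in the other direction. Whether neuron markers have a part in the value of Slc1a6 was not tested. Slc1a2, the main glutamate carrier of astrocytes, stood at -3.97 and -3.97 with PGE2, against -3.23 and -4.60 in controls, with a change of -0.05 ± 0.50 (limma adjusted p = 0.967).

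Slc43a3 had the change furthest above 0 among the transporters. It belongs to the Slc43 family by sequence and is known as a carrier of purine nucleobases. Its signals were 3.59 and 4.11 with PGE2, against 2.63 and 2.16 in controls. Both PGE2 arrays were well above both control arrays. The change was 1.46 ± 0.28 (SE, n = 2 per group; 95% interval 0.68 to 2.23), or 2.74-fold, with a limma adjusted p of 0.132. Slc38a6, the gene whose promoter window holds the full cyclic AMP response element shown above, stood at -0.69 and -0.70 with PGE2, against -0.42 and -0.21 in controls. Both PGE2 arrays were below both controls, by a change of -0.38 ± 0.16 (limma adjusted p = 0.338). The other 4 genes of this class, Slc38a10, Slc7a14, Slc7a4 and Slc6a16, had overlapping groups.

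**Figure D3:**
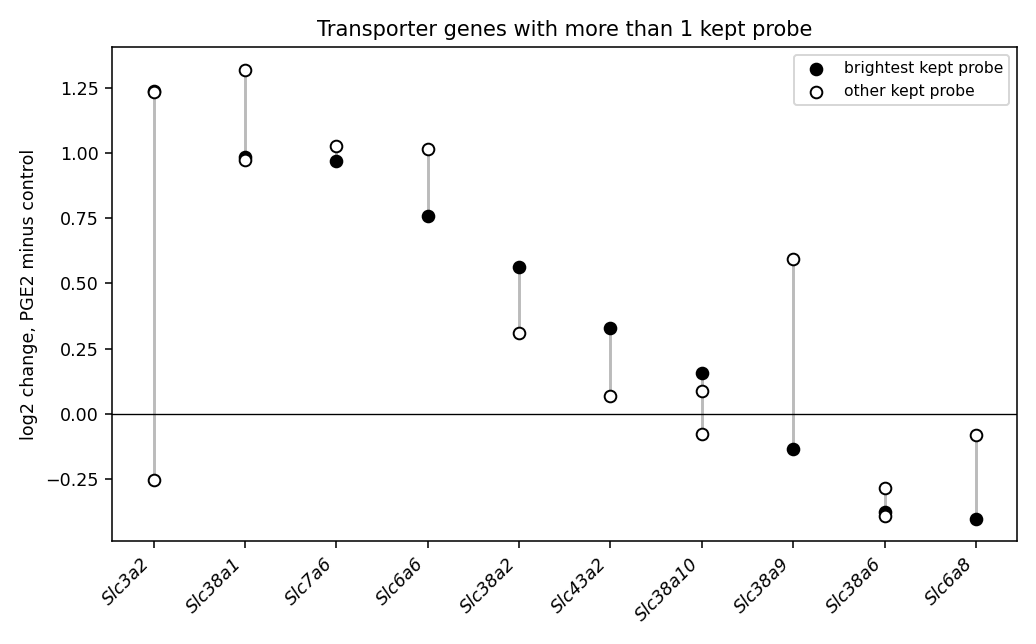
Fitted change, PGE2 minus control in log2 signal, of every kept probe of the 10 transporters that have more than 1 kept probe. All kept probes have the same sign in 7 of them, and Slc3a2, Slc38a9 and Slc38a10 have probes on both sides of 0.

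Genes that use or sense amino acids were set beside the transporters, from 4 lists. No gene of any list passed limma's test at an adjusted p under 0.05. Of 26 tested enzymes of amino acid metabolism, 8 changes were above 0 and 18 below, with a median of -0.19 (0.06 with the deposited scaled signal), and 4 (15.4%, beside 17.9% of all genes) had an unadjusted p under 0.05. Ass1, argininosuccinate synthase, which rebuilds arginine from citrulline, stood at -1.40 and -0.27 with PGE2, against 1.26 and 2.34 in controls. The groups were well apart, by a change of -2.63 ± 0.56 (SE, limma adjusted p = 0.150). With a block for the replicate number, for which no pairing is established, Ass1 passed (limma adjusted p = 0.0470). Gls2, a glutaminase, stood at 1.13 and -0.84 with PGE2, against -2.65 and -3.12 in controls, with a change of 3.03 ± 0.72 (limma adjusted p = 0.167). Glul, glutamine synthetase, stood at 3.16 and 2.42 with PGE2, against 1.44 and 1.61 in controls. For both glutamine enzymes the PGE2 arrays lay above the control arrays, with a change of 1.27 ± 0.30 for Glul (limma adjusted p = 0.167).

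Of 22 tested genes of amino acid sensing and response, 8 changes were above 0 and 14 below, with a median of -0.16 (0.09 with the deposited scaled signal), and 3 (13.6%, beside 17.9% of all genes) had an unadjusted p under 0.05. Castor1, a cytosolic arginine sensor of the mTORC1 pathway named Gatsl3 in the file, stood at -1.20 and -1.15 with PGE2, against 0.22 and -0.12 in controls. Its groups did not overlap, and its change of -1.22 ± 0.19 (SE) had a limma adjusted p of 0.0978. Sesn1, a sestrin, a family that restrains mTORC1, stood at 1.99 and 1.92 with PGE2, against 3.46 and 2.92 in controls. This too was lower on both PGE2 arrays, by -1.24 ± 0.24 (limma adjusted p = 0.132). The other sestrins differed in direction, with a change of -0.49 for Sesn2 and of 0.90 for Sesn3, each with separate groups. Trib3, a pseudokinase that Atf4 induces, stood at 3.03 and 2.30 with PGE2, against 1.82 and 1.27 in controls, a change of 1.11 ± 0.35 (limma adjusted p = 0.240). Among 7 tested carriers of amino acids and peptides from other families, the median was 0.30 (0.56 with the deposited scaled signal, 0.068 with the mean of all kept probes). None of the 7 had an unadjusted p under 0.05, beside 17.9% of all genes. Ctns, the lysosomal cystine carrier, had a change of 0.49 ± 0.18 (limma adjusted p = 0.285) and Slc66a1, the lysosomal cationic carrier named Pqlc2 in the file, of 0.41 ± 0.16 (limma adjusted p = 0.306). Slc15a2, a proton-coupled carrier of small peptides, had a change of 1.32 ± 0.61 (limma adjusted p = 0.359) on the probe that stood for it. Of its 3 kept probes, 2 agreed in sign, and the change was 0.068 with their mean, 0.51 without PGE2 replicate 2 and 2.13 without PGE2 replicate 1.

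All 20 cytosolic aminoacyl-tRNA synthetases on the list, the enzymes that load amino acids onto tRNA, were tested, with 5 changes above 0, 15 below and a median of -0.15 (0.11 with the deposited scaled signal). Iars, the isoleucine enzyme, stood at 1.89 and 2.06 with PGE2, against 2.97 and 2.44 in controls. Both PGE2 arrays were lower, by -0.73 ± 0.24 (SE, limma adjusted p = 0.255). Iars was the single gene of the list with an unadjusted p under 0.05 (5% of the list, beside 17.9% of all genes). Farsa, a phenylalanine enzyme subunit, had a change of 0.38 ± 0.17 (limma adjusted p = 0.332), and Sars, the serine enzyme, of -0.42 ± 0.20 (limma adjusted p = 0.369).

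Control replicate 1 was often the highest array in 3 of the 4 lists. It was the highest of the 4 arrays in 16 of 20 synthetases (80%), in 16 of 26 enzymes (61.5%) and in 11 of 22 sensing genes (50%), and in 1 of 7 other carriers (14.3%), beside 9 of 29 transporters (31.0%) and 35.1% of all tested genes. Without it, the median change was 0.05 for the synthetases, -0.02 for the enzymes and 0.03 for the sensing genes, and without control replicate 2 it was -0.41, -0.37 and -0.24. The following genes were chosen after their values were seen. Atf4, the transcription factor of the amino acid shortage response, stood at 5.14 and 5.14 with PGE2, against 6.61 and 4.99 in controls. Its target Asns, asparagine synthetase, stood at 2.33 and 2.36 with PGE2, against 4.26 and 2.62 in controls. Chac1, another target, stood at 0.94 and 0.53 with PGE2, against 3.01 and 0.53 in controls. In all 3, control replicate 1 was far above the remaining arrays. Trib3 and Ddit3, also of the sensing and response list, did not have this layout. Trib3 stood at 1.82 on control replicate 1, below both PGE2 arrays (3.03 and 2.30). Ddit3 stood at 0.79 on control replicate 1, beside 0.91 on control replicate 2 and 0.81 and 0.45 with PGE2. Among the transporters, Slc7a1 and Slc6a9 had the layout of Atf4, with control replicate 1 highest. Slc38a2 and Slc38a1 had control replicate 1 as the lowest array. What sets control replicate 1 apart was not tested.

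**Figure D4:**
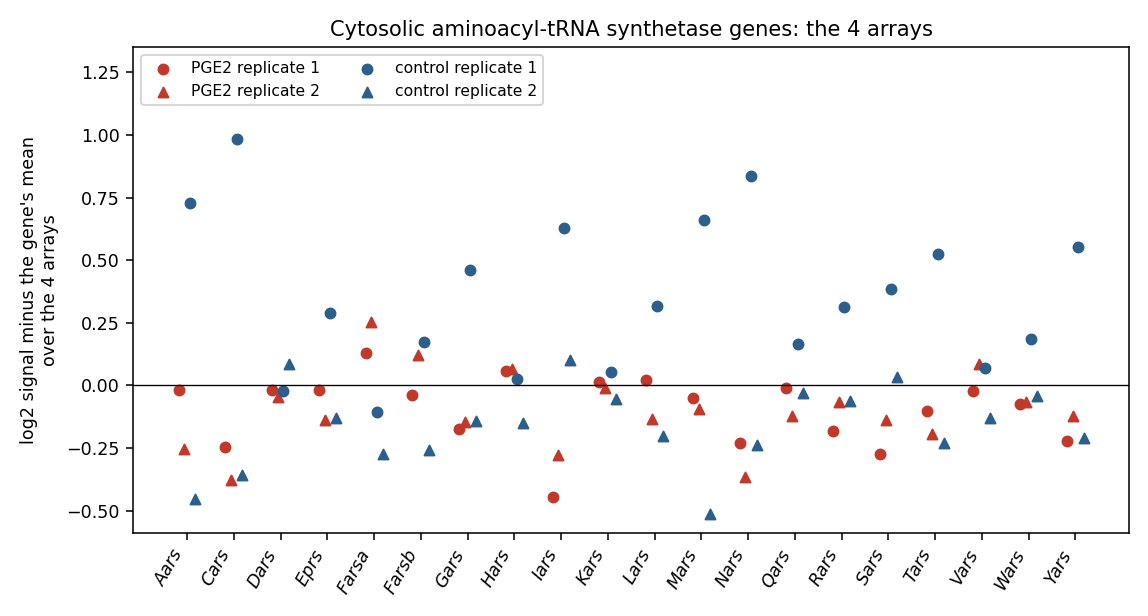
Log2 signal of the tested cytosolic aminoacyl-tRNA synthetases on the 4 arrays, minus each gene's mean over the 4 arrays. Control replicate 1 is the highest array in 16 of the 20 synthetases.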

How the data were processed

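Total RNA from 4 cultures, 2 with PGE2 and 2 controls, was labelled with Cy3 and hybridised to 1-colour Agilent arrays, 1 per culture, per the labels' protocols. The deposited scanner files hold a processed intensity per spot, made with Agilent Feature Extraction 11.5.1.1 per the file headers, while the submitters' processing notes name 12.0.3.1. A table of the whole series, also deposited, gives a scaled signal, equal to the processed intensity times a constant per array. It supplied gene symbols and served as an alternative. Its 4 other value columns, detection calls, were not used. All 4 arrays share a slide and a scan, so no batch could be tested.

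Here, replicate spots were averaged, 158 probes with outlier flags were left out (1 of them a transporter probe, for Slc7a15), and values were log2 of the intensity minus each array's 75th percentile. Probes measured well above background on both PGE2 arrays or on both control arrays were kept (26100 of 56605), and the brightest kept probe on average stood for its gene, giving 17660 genes or unnamed probes. limma 3.58.1 in R 4.3.3 (lmFit, eBayes, Benjamini-Hochberg over all of them, threshold 0.05) compared the groups without a replicate block, with 2 residual degrees of freedom and 2.15 prior ones. With 2 arrays per group, the number of arrays limits the precision. All 116 probes, those of the opposite-strand genes included, matched a RefSeq gene ID.

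The change with its SE and adjusted p is given for transporters with an unadjusted p under 0.05 and the 2 with the smallest p of each class, and for the 3 genes with the smallest p of each list. Other members are named with their change, some with its adjusted p. The transporters, classes and lists were chosen with earlier results of these data known. Same-numbered cultures deviated together at r = 0.42 over 2 pairs, which does not establish pairing. Alternatives were quantile normalization, 2 other centrings, normexp background correction, the deposited scaled signal, 2 other filters, the mean over probes, the replicate block and leaving out each array. The mean spot intensity planned for normexp was not in the scanner files used here, so the median spot intensity replaced it. The same alternatives for the medians of the lists were chosen after seeing the data. Scripts were tested on simulated data.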

Additional observations from a re-analysis of the deposited data

How the results depend on the processing

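Of the 13 alternatives, none that kept all 4 arrays called a transporter higher or lower. Over the arrays left out, the change of Slc1a6 ran from -6.58 to -2.59. The first, without PGE2 replicate 2, rests for PGE2 on 1 reading that was not above background. The count at an unadjusted p under 0.05 ranged from 4 to 12 there. The replicate block (no pairing is established) gave 0 called transporters and 9 with an unadjusted p under 0.05, against 7 without it. Over all genes it gave 89 higher and 84 lower calls, against 70 and 48, and Ass1 passed under the block (limma adjusted p = 0.0470). Without PGE2 replicate 2, Gls2 passed with a change of 4.01 (limma adjusted p = 0.0471). Without control replicate 1 or 2, with the 75th percentile taken over detected probes, with the deposited scaled signal and with no filter, 0 of all genes passed, with 2688 to 4206 at an unadjusted p under 0.05. Keeping only probes above background on all 4 arrays gave 39 higher and 15 lower.

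The small neutral and glutamine class, at 0.53, was 0.29 with normexp, 0.78 with the deposited signal, -0.14 with no filter, 0.092 with the 4-array filter and -0.18 to 0.54 with arrays left out. Its value with no filter is that of Slc38a3, above background on no array. The glycine, proline and proton-coupled class, at -0.42, was -0.19 with normexp, -0.17 with the deposited signal, -0.23 with the 4-array filter and -0.44 to -0.22 with arrays left out. The cationic class, at -0.14, was 0.12 with the deposited signal and -0.30 to 0.0098 with arrays left out. The orphan or other class, at -0.07, was 0.19 with the deposited signal, which moves the median of all genes to 0.23.

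Among single genes, Slc1a2 (-0.05) turned to 0.11 with quantile normalization, 0.15 with normexp, 0.21 with the deposited signal and -0.74 to 0.63 with arrays left out. Slc43a2 (0.33) ran from -0.13 to 0.79 with arrays left out. The cause of these shifts was not tested. Dim probes such as those of Slc1a2, Slc6a20a and Slc7a10 lie near the background, where signal over background limits what can be read.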
